A study of Mus musculus with 4 samples.

Results

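The genes described here are the ligands Vegfa, Vegfb, Vegfc and Pgf, the receptors Flt1, Kdr and Flt4, the co-receptors Nrp1 and Nrp2, and Esm1. They are 10 of the 25149 genes detected in the tables, taken by name. Vascular endothelial growth factors (VEGFs) are secreted proteins that bind receptor tyrosine kinases on endothelial cells, with Kdr as the main signalling receptor for VEGF-A. Flt1 binds VEGF-A, VEGF-B and placental growth factor, and its soluble form acts as a decoy. Flt4 is the receptor for VEGF-C, best known from lymphatic vessels and also present in the liver sinusoid. Neuropilins bind VEGFs and class 3 semaphorins, and Esm1 encodes endocan, a secreted proteoglycan known as a VEGF-induced gene and a marker of endothelial tip cells.

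Single-cell transcriptomes came from the livers of 4 mice, all wild-type males 8 to 10 weeks old, captured with the BD Rhapsody system. The 2 CCl4 mice were injected into the peritoneum with carbon tetrachloride, a solvent that injures hepatocytes and produces fibrosis, diluted as 1 part in 9 parts of corn oil and dosed by weight at 10 µl per g. The 2 corn oil mice received vehicle. Injections were given 2 times per week for 5 weeks, and livers were taken 48 hours after the last one, perfused with pronase and collagenase and depleted of hepatocytes by a low-speed spin. Each library is 1 mouse. The 4 libraries held 45408857 to 55529871 UMIs (unique molecules) in 5948 to 7663 deposited cells, with median depths of 4493 to 6861 UMIs per cell.

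Cells were sorted by marker UMIs into 5 gates. Endothelial cells had at least 4 UMIs of Ptprb, Egfl7 and Cdh5 together and were split by Vwf, a gene of larger vessels, into Vwf<4 cells (15950 over the 4 mice) and Vwf≥4 cells (582). Stellate cells, the pericytes of the sinusoid, numbered 925, Kupffer cells, the resident macrophages, 500, and monocytes 2327. The Vwf<4 gate carried all 7 endothelial marker genes at a summed 7485 to 9500 CPM (a gene's UMIs relative to all UMIs of the gate in that mouse, as counts-per-million), and the Vwf≥4 gate carried 10 vessel markers at 7732 to 9697 CPM against 1398 to 2628 CPM in Vwf<4 cells. All 8 stellate, 7 Kupffer and 7 monocyte markers were detected in the gate of that name. Cells that passed more than 1 gate were dropped, which removed 83.0% and 84.5% of cells passing the Kupffer gate in the corn oil mice and 71.5% and 63.6% in the CCl4 mice. Of cells passing the stellate gate it removed 66.0% and 74.2% against 32.7% and 34.8%, so the values of both gates describe the remainder. The monocyte gate held 43 and 24 cells in the corn oil mice against 912 and 1348 in the CCl4 mice. In corn oil 1 it also held fibroblast RNA, with 6 fibroblast markers at 10065 CPM against 3.76 CPM in corn oil 2. Kupffer markers in the monocyte gate summed to 2377 and 3203 CPM in the corn oil mice against 232 and 209 CPM in the CCl4 mice. The corn oil sums came mainly from Cd5l (907 and 1392 CPM), Marco (804 and 1024 CPM) and C1qa (505 and 730 CPM). Folr2 was at 145 and 52.7 CPM there, and Vsig4, Timd4 and C6 were at 9.68 CPM or below. Of 5 Kupffer markers tested there, 4 were called lower with CCl4. Of 7 monocyte markers, 4 were called higher and 0 lower. Ly6c2 was at 53.3 and 41.4 CPM against 598 and 829 CPM, while Itgam, not called, was at 1793 and 4049 CPM against 984 and 932 CPM. The gate's marker RNA thus differed between the groups, and monocytes below are the cells of this gate, whatever their type. Any 2 libraries shared 48 to 74 cell labels, and the labels put all 4 in 1 batch. The CCl4 1 table came from a pipeline run on an earlier day than the other 3, per the file headers.

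The stretch upstream of the start site is shown for 3 genes whose transcripts changed in endothelial cells, namely Esm1, the ligand Vegfc and the receptor Kdr. Esm1 lies at chr13:113209659-113218098 on the plus strand, Vegfc at chr8:54077606-54187096 on the plus strand and Kdr at chr5:75932827-75978458 on the minus strand (GRCm38), all annotated as protein coding. The windows below are the 250 bases before the RefSeq start site, 5′ to 3′ on the gene's strand, at chr13:113209409-113209658, chr8:54077282-54077531 and chr5:75978456-75978705 (GRCm38.p6). Capitals mark matches, on either strand, of any of the 5 motifs spelled out after the windows.
Esm1: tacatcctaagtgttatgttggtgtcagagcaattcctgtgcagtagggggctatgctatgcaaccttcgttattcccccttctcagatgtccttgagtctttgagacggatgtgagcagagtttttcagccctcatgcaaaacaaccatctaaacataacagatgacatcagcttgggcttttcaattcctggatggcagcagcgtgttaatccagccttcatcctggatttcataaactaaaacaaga
Vegfc: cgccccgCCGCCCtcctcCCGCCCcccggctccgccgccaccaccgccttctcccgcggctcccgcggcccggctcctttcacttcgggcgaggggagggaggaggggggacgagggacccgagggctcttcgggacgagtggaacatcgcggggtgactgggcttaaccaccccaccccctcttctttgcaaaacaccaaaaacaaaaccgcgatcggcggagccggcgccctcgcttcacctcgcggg
Kdr: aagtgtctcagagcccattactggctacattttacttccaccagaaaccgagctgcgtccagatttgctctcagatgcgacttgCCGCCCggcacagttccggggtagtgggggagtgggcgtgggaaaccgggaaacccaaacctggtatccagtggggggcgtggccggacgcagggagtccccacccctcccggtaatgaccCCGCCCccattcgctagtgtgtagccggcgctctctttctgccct
All capitals in these windows are GC boxes, 2 each for Vegfc and Kdr, and the Esm1 window held 0 matches of the 5 motifs. The GC box, GGGCGG, was found in 33.0% of 32536 RefSeq windows of this length. The hypoxia core motif, ACGTG, was found in 16.7% of them and the ETS motif, AGGAAG, in 29.6%. The AP-1 motif, TGANTCA, was found in 6.73% and the GATA motif, AGATAA, in 9.97%. Esm1 had a GC content of 44.0%, below the median of 52.4% over all windows, whereas Vegfc was at 71.6% and Kdr at 61.6%. Among 12 start sites of the 10 genes the other 11 lay at 59.2% to 76.4%. A match describes letters only and does not show binding.

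Levels per mouse placed the receptors in endothelial cells and the ligands in different gates. Vegfa was highest in the monocyte gate, at 147 and 102 CPM in the corn oil mice and 178 and 137 CPM in the CCl4 mice. This range lay apart from every other gate. Its ranges in Vwf≥4, Vwf<4 and stellate cells overlapped along the order, and Kupffer cells were lowest at 5.12 to 20.8 CPM. Vegfc was highest in Vwf≥4 cells (122 to 343 CPM), then stellate cells (51.8 to 114 CPM), then Vwf<4 cells (10.5 to 48.8 CPM), with no overlap between these 3. Vegfb ran from 41.9 to 84.2 CPM in Vwf<4 cells down to 0 to 29.0 CPM in monocytes, and each neighbouring pair of gates overlapped. Pgf reached at most 4.84 CPM in any gate and passed the filter on low counts in none of them.

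**Figure D1:**
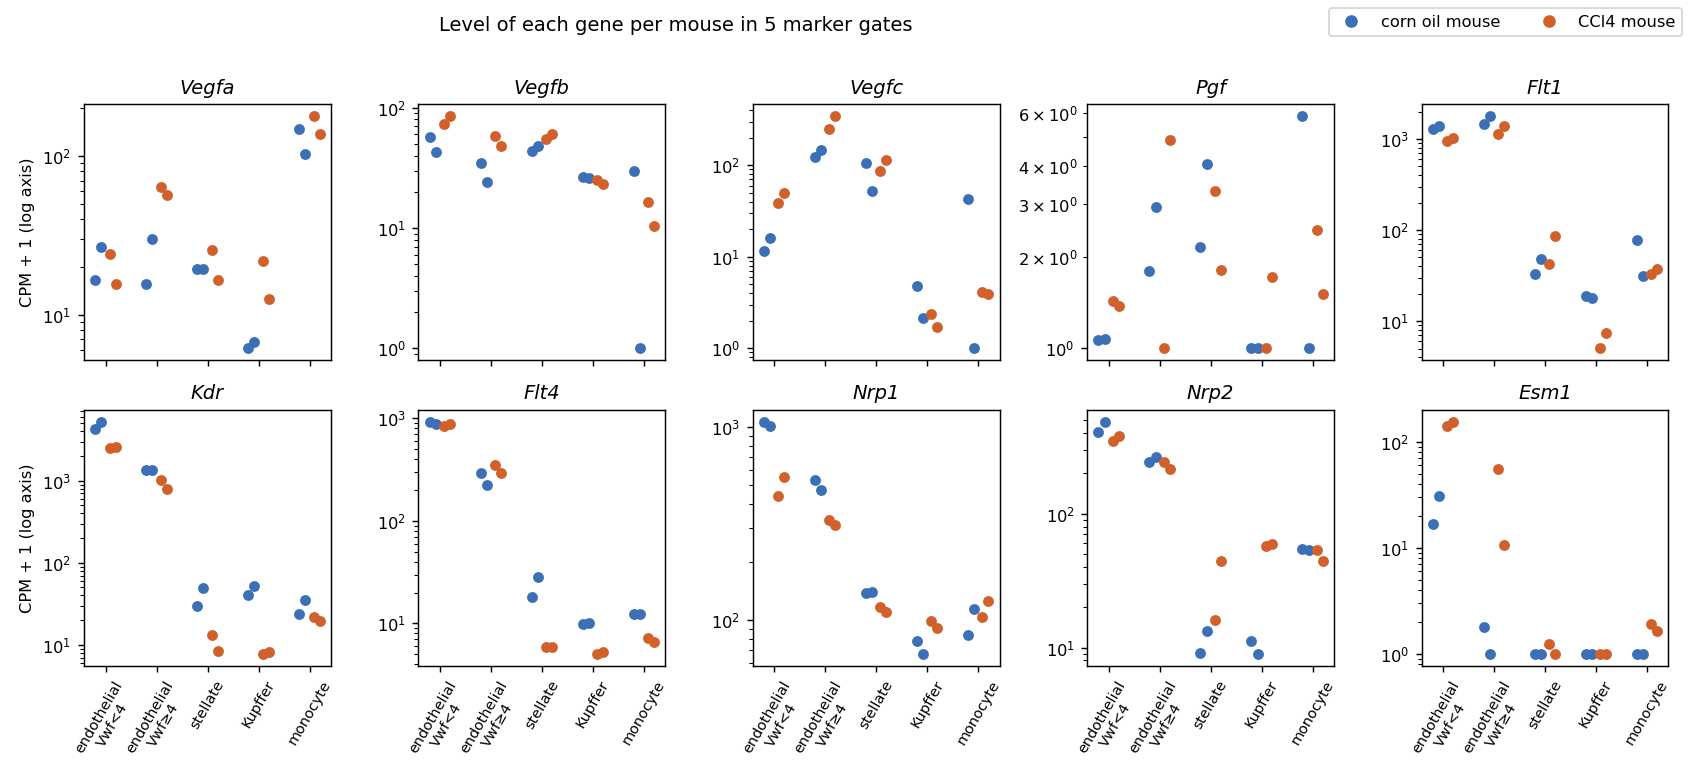
CPM + 1 (log axis) of each of the 10 genes in 5 marker gates, 1 point per mouse, corn oil in blue and CCl4 in orange. Kdr, Flt4 and Flt1 are highest in the endothelial gates, Vegfa in the monocyte gate (102 to 178 CPM) and Vegfc in endothelial Vwf≥4 cells (122 to 343 CPM).

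Kdr and Flt4 were ordered alike, with Vwf<4 cells first (2490 to 5236 CPM for Kdr, 834 to 925 CPM for Flt4) and Vwf≥4 cells next (794 to 1366 CPM and 224 to 354 CPM). All other gates stayed at or below 51.0 CPM for Kdr and 27.4 CPM for Flt4. Flt1 did not separate the endothelial gates by range, at 1133 to 1783 CPM in Vwf≥4 cells and 946 to 1399 CPM in Vwf<4 cells. The neuropilins were less restricted. Nrp1 was measured at 65.7 to 139 CPM across stellate, Kupffer and monocyte gates, and Nrp2 at 43.1 to 53.3 CPM in monocytes. Over 20 sums of 5 gates in 4 mice, the genes whose log2(CPM + 1) was most like Kdr among 8928 genes were F8, the gene for coagulation factor VIII (Pearson r 0.99), Dpp4 (r 0.99) and Flt4 (r 0.99). Those most like Vegfa were Pfkl, a glycolytic enzyme gene (r 0.91), Ero1l (r 0.90) and Emb (r 0.89), and those most like Esm1 were Rab3b (r 0.92), Jak1 (r 0.90) and Klhl36 (r 0.88). The sums share mice and libraries, and no test was made of these values.

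In endothelial Vwf<4 cells, Esm1 and Vegfc transcripts rose with CCl4 and Kdr and Nrp1 transcripts fell. These were 4 of the 9 genes of the set that passed the filter on low counts, 2 in each direction, while 5.18% of the 13252 genes tested in this gate (2.79% higher and 2.39% lower) were called at an adjusted p under 0.05 (edgeR quasi-likelihood test on UMIs summed per mouse, Benjamini-Hochberg over all genes). The median log2 change of the 9 was -0.18, beside 0.00 over all genes.

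Esm1 was at 15.8 and 30.1 CPM in the corn oil mice and at 140 and 153 CPM in the CCl4 mice. Both CCl4 values lay above both corn oil values, a 6.12-fold rise (log2 2.61 ± 0.29 SE, edgeR adjusted p 0.00723). The call held in all 11 alternatives run, with log2 changes of 2.23 to 3.14.
The Esm1 transcripts were also found in more cells. After each cell was thinned to 2000 UMIs, 1.69% and 3.19% of Vwf<4 cells in the corn oil mice and 13.3% and 15.3% in the CCl4 mice had an Esm1 UMI, and the exact 95% intervals of the groups did not overlap (1.35 to 3.70% against 12.1 to 16.7%, counting error only). Unthinned shares were 3.24%, 5.06%, 22.3% and 23.0%, at median depths of 5195, 4247, 6806 and 6175 UMIs. In Kupffer cells, a type that should lack the gene, 0 of 500 cells had an Esm1 UMI, which allows a share of up to 0.6%. In stellate cells it was 1 of 925, and in monocytes 10 of 2327, with 5 in each CCl4 mouse. Cells that also passed the endothelial gate had been dropped from these gates, so the shares do not cover cells with more endothelial RNA. In the corn oil mice the top 1% of cells held 65.2% and 54.4% of the Esm1 UMIs of the gate, and in the CCl4 mice 23.7% and 22.2%.

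Vegfc, the ligand of Flt4, was at 10.5 and 15.2 CPM in the corn oil mice and 37.7 and 48.8 CPM in the CCl4 mice. The groups did not overlap and the rise was 3.22-fold (log2 1.69 ± 0.22, edgeR adjusted p 0.0121). Without CCl4 replicate 2 the call was lost (log2 1.53, adjusted p 0.0520). Thinned shares of cells with a Vegfc UMI were 1.96% and 2.56% against 7.45% and 9.28%, beside 0 of 497 thinned Kupffer cells and 9 of 2327 thinned monocytes. Vegfb was at 56.1 and 41.9 CPM against 71.8 and 84.2 CPM, which did not pass (log2 0.61 ± 0.18, adjusted p 0.0990), though DESeq2 called it (0.0428). Vegfa overlapped between the groups, at 15.6 and 25.7 CPM against 23.1 and 14.6 CPM (adjusted p 0.786).

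**Figure D2:**
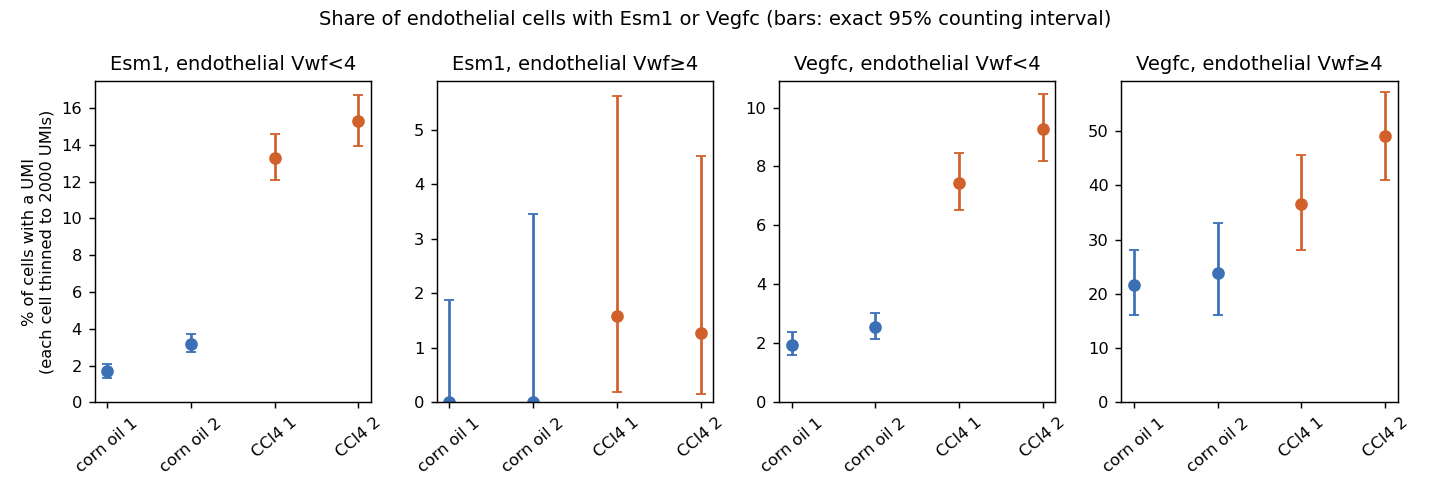
Percent of endothelial Vwf<4 and Vwf≥4 cells with a UMI of Esm1 or Vegfc after thinning to 2000 UMIs per cell, 1 point per mouse with its exact 95% counting interval. In Vwf<4 cells Esm1 is in 1.69% and 3.19% of corn oil cells and in 13.3% and 15.3% of CCl4 cells, while in Vwf≥4 cells it is at or below 1.59% in every mouse.

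Among the receptors of Vwf<4 cells, Kdr was at 4233 and 5236 CPM in the corn oil mice and 2490 and 2553 CPM in the CCl4 mice. It fell by 0.97 on the log2 scale (SE 0.16, edgeR adjusted p 0.0248), a 1.96-fold loss with no overlap. The Kdr call was lost without corn oil replicate 2 (adjusted p 0.0649), CCl4 replicate 1 (0.122) or CCl4 replicate 2 (0.0912), with log2 changes of -0.81, -1.01 and -0.95.
Nrp1 was at 1064 and 1009 CPM against 436 and 550 CPM, a 2.20-fold loss (log2 -1.14 ± 0.14, edgeR adjusted p 0.0114). Without CCl4 replicate 1 its adjusted p was 0.0754. The other receptors were not called by the same test. Flt1 was at 1284 and 1399 CPM against 946 and 1028 CPM (log2 -0.50, adjusted p 0.0775), and DESeq2 did call it (adjusted p 0.0112). Flt4 was at 925 and 877 CPM against 834 and 877 CPM, and Nrp2 at 405 and 485 CPM against 346 and 379 CPM.
The summed endothelial markers were also lower in the CCl4 mice, at 7825 and 7485 CPM against 9500 and 9475 CPM, with 1 of 7 markers called lower. Vessel markers were higher, at 2628 and 2621 CPM against 1725 and 1398 CPM. Their part in the changes of Kdr, Nrp1, Esm1 and Vegfc was not tested. A Kdr UMI was found in 99.5% and 99.7% of Vwf<4 cells of the corn oil mice and 99.2% and 99.4% of those of the CCl4 mice (thinned, 98.7% and 99.1% against 95.2% and 96.1%). The mean number of Kdr UMIs in cells with at least 1 was 24.3 and 25.8 against 19.7 and 17.8, so nearly every cell of the gate held Kdr RNA in both groups, and the mean per cell was lower in both CCl4 mice. For Nrp1 the thinned shares were 85.6% and 83.6% against 56.6% and 62.7%, and the mean in cells with at least 1 UMI was 6.23 and 5.20 against 3.79 and 4.12.

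**Figure D3:**
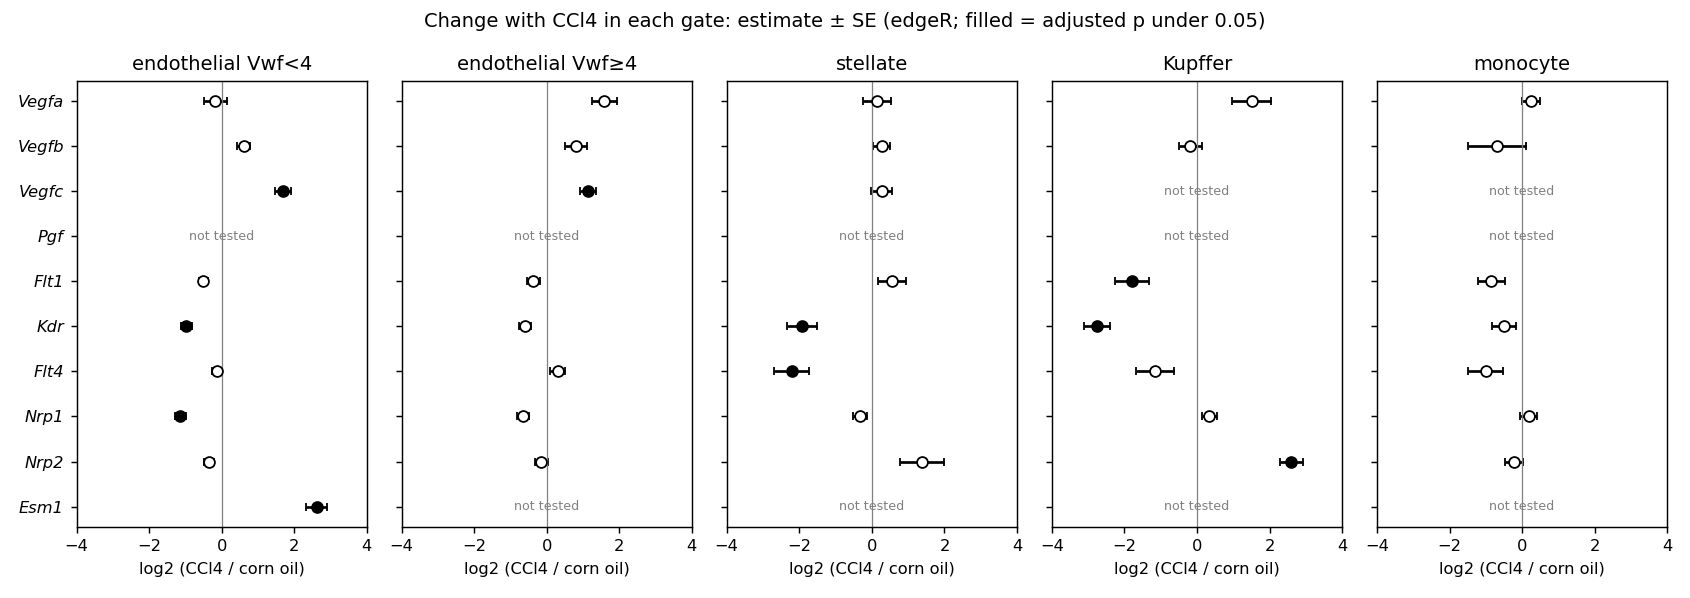
log2 change of CCl4 over corn oil (points, bars ± SE) for the 10 genes in each gate, filled where the edgeR adjusted p was under 0.05 and marked as not tested where the gene did not pass the filter on low counts. Esm1 (2.61) and Vegfc (1.69) lie to the right and Kdr (-0.97) and Nrp1 (-1.14) to the left in Vwf<4 cells, and Nrp2 (2.60) lies to the right in Kupffer cells.

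Liver sinusoids run from the portal to the central vein, and endothelial cells differ along them. Vwf<4 cells were split by 5 periportal and 5 pericentral marker genes, lists that were chosen with results of these data known, so the values are a description. Esm1 was at 62.3 and 94.96 CPM in periportal-marked cells of the corn oil mice and 456 and 396 CPM in those of the CCl4 mice. In pericentral-marked cells it was at 0 and 0 CPM against 63.4 and 12.9 CPM, in 163, 154, 35 and 24 cells. Vegfc had the same order, at 25.1, 28.8, 86.5 and 110 CPM in periportal-marked cells and 1.33, 0, 25.4 and 0 CPM in pericentral-marked cells. Marked cells held at least 2 UMIs of their own list and none of the other. The remaining cells, 80.3% to 86.9% of the gate, held UMIs of both lists or fewer than 2 UMIs of either. They lay between for Esm1 (12.0, 19.7, 106 and 114 CPM).
Kdr was lower in the CCl4 mice in both zones, at 4060 and 4819 CPM against 2813 and 2724 CPM in periportal-marked cells and 3927 and 5458 CPM against 1214 and 1292 CPM in pericentral-marked cells. Nrp1 was at 1176 and 1030 CPM against 506 and 636 CPM in the first and 959 and 885 CPM against 220 and 271 CPM in the second.

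**Figure D4:**
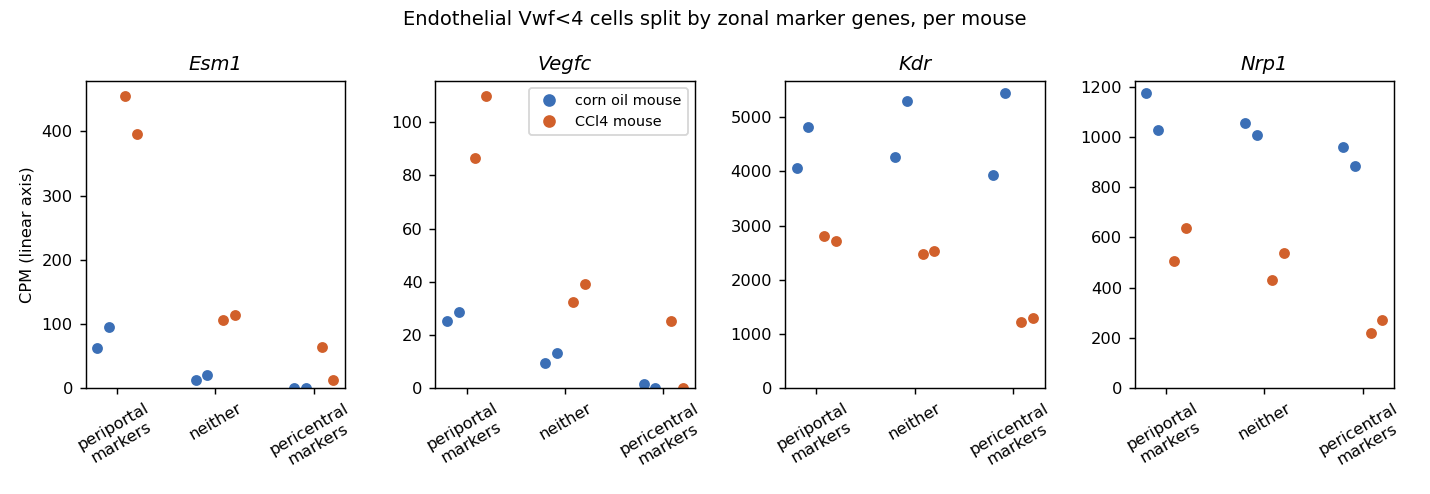
CPM (linear axis) of Esm1, Vegfc, Kdr and Nrp1 in endothelial Vwf<4 cells split by zonal markers, 1 point per mouse. Classes are periportal-marked cells, pericentral-marked cells and all remaining cells. The remaining cells, labelled neither, include cells with UMIs of both lists. Esm1 and Vegfc are highest in periportal-marked cells of CCl4 mice (396 to 456 and 86.5 to 110 CPM), and Kdr and Nrp1 are lower in CCl4 mice in all 3 classes.

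Endothelial cells with at least 4 Vwf UMIs differed from the rest in 9 of the 10 genes, where 23.6% of 12604 genes were called (edgeR, mouse as a block). Averaged over the 4 mice in this fit, Vegfc was 8.03-fold higher in Vwf≥4 cells (log2 3.01 ± 0.10, adjusted p 1.44e-16) and Vegfa 1.70-fold higher (log2 0.77 ± 0.18, adjusted p 0.00261). For Vegfa this average joins unlike groups, with 14.5 and 29.0 CPM in Vwf≥4 cells of the corn oil mice beside 15.6 and 25.7 CPM in their Vwf<4 cells, and 63.1 and 56.1 CPM beside 23.1 and 14.6 CPM in the CCl4 mice. Flt1 was 1.16-fold higher (log2 0.22 ± 0.07, adjusted p 0.0173). Kdr was 3.31-fold lower (log2 -1.73 ± 0.07, adjusted p 2.17e-14), and Flt4 3.20-fold lower (log2 -1.68 ± 0.08, adjusted p 6.40e-14). Nrp1 was at log2 -0.92, Nrp2 at -0.81 and Vegfb at -0.75, all called lower.
Esm1 was the most unequal, at log2 -3.77 ± 0.43 (adjusted p 2.84e-07), and without corn oil replicate 1, which held the only corn oil UMI of Vwf≥4 cells, at -6.90. Without CCl4 replicate 1 it was at -4.63. The Flt1 call was lost without corn oil replicate 2 (adjusted p 0.101) or CCl4 replicate 2 (0.198), and both the Flt1 and the Vegfa call without the mouse block (0.203 and 0.142) and when cells were thinned before gating (0.741 and 0.137). Pgf was not called (adjusted p 0.137). Median depths of Vwf≥4 cells, 4004 to 5814 UMIs, were below those of Vwf<4 cells of the same mouse. Cells with exactly 3 Vwf UMIs, just below the split, had Kdr at 1211 to 2566 CPM and Vegfc at 64.5 to 174 CPM, and cells with exactly 4 had 960 to 2193 and 106 to 378 CPM.

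With CCl4, Vegfc rose within Vwf≥4 cells, the 1 gene called of the 8 that passed, where 1.39% of 8559 genes were called (0.783% higher, 0.608% lower). It was at 122 and 147 CPM against 245 and 343 CPM, a 2.20-fold rise (log2 1.13 ± 0.22, edgeR adjusted p 0.0329). The change was larger when cells were thinned to 2000 UMIs before gating (log2 1.98).
Vegfa was at 14.5 and 29.0 CPM against 63.1 and 56.1 CPM, with no overlap, and did not pass (log2 1.59 ± 0.35, adjusted p 0.0593). It was called without corn oil replicate 2 (0.000239), without CCl4 replicate 1 (0.0314) and without CCl4 replicate 2 (0.00305). Without corn oil replicate 1 it was not (0.169). The number called rose from 1 to 2, 4, 3 and 3 without corn oil replicates 1 and 2 and CCl4 replicates 1 and 2.
Kdr was at 1342 and 1366 CPM against 1016 and 794 CPM (adjusted p 0.154), and Nrp1 at 529 and 471 CPM against 330 and 311 CPM (adjusted p 0.100). Esm1 did not pass the filter, with 1 and 0 UMIs in the Vwf≥4 cells of the corn oil mice and 54 and 10 in those of the CCl4 mice. The UMIs of the CCl4 mice came from 9 and 2 cells, and 1 cell of CCl4 1 held 30 of its 54. The CCl4 effect on Vegfa differed between Vwf≥4 and Vwf<4 cells (log2 difference 1.75 ± 0.34, edgeR adjusted p 0.00855), the 1 gene of the set so called where 1.07% of 12604 genes were. The call was lost when cells were thinned (0.816 before gating, 0.174 after), and without corn oil replicate 1 or CCl4 replicate 2 the number called was 4 or 3. Hepatocyte markers in Vwf≥4 cells were at 167, 191, 125 and 340 CPM and monocyte markers at 831, 386, 712 and 753 CPM, and their part in the Vegfa values was not tested.

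Outside the endothelium, receptor transcripts were set beside endothelial marker genes measured in the same gate. The median of 7 endothelial markers in Kupffer cells was 1.19% and 1.53% of its level in Vwf<4 cells in the corn oil mice and 0.835% and 0.607% in the CCl4 mice. Kdr was at 0.938% and 0.974% against 0.270% and 0.281%, and Flt4 at 0.969% and 1.03% against 0.483% and 0.491%. Nrp1 was at 7.22% and 6.51% against 22.5% and 16.3%, above the marker median in every mouse. The highest single marker was at 10.6% and 10.1% against 9.29% and 8.73%, so Nrp1 lay below it in the corn oil mice and above it in the CCl4 mice. In stellate cells Nrp1 was at 12.9% and 13.7% against 26.6% and 19.9%, where the marker median was at 1.61% and 1.94% against 0.693% and 0.554% and the highest marker at 2.41% and 2.50% against 1.68% and 1.19%. These percents also depend on the Vwf<4 level of Nrp1, which was lower in the CCl4 mice. In CPM, stellate Nrp1 did not rise, at 137 and 139 against 116 and 110 (log2 -0.33, edgeR adjusted p 0.296).

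**Figure D5:**
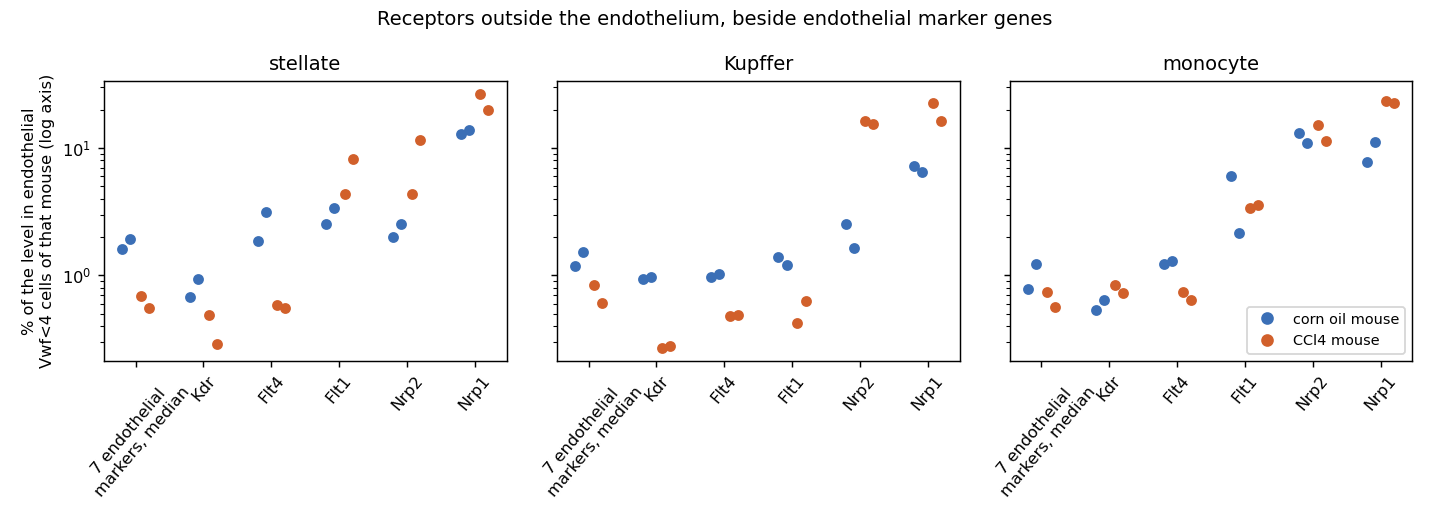
Level of each receptor in stellate, Kupffer and monocyte gates as a percent of its level in endothelial Vwf<4 cells of the same mouse (log axis), beside the median of 7 endothelial marker genes, 1 point per mouse. Nrp1 lies at 6.51% or above in every gate and mouse, Kdr at or below 0.974%, and Nrp2 of Kupffer cells at 1.63% and 2.53% in corn oil and 15.5% and 16.3% in CCl4 mice.

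In Kupffer cells 3 of the 7 genes of the set that passed were called, 1 higher and 2 lower, where 15.7% of 8385 genes were called (7.36% higher, 8.3% lower). Nrp2 was at 10.2 and 7.93 CPM in the corn oil mice and 56.4 and 58.8 CPM in the CCl4 mice, a 6.06-fold rise (log2 2.60 ± 0.33, edgeR adjusted p 0.000351). With each cell given equal weight the means were 12.99 and 10.89 CPM against 54.4 and 49.7 CPM. When cells were thinned before gating, the direction turned (log2 -0.62, adjusted p 0.536). That gate held 319 and 304 cells against 121 and 145, and carried endothelial markers at 864 and 854 CPM against 500 and 486 CPM, where the gate at full depth had 309 and 307 against 191 and 189 CPM. Gated at full depth and then thinned, Nrp2 was at 18.5 and 7.58 CPM against 55.1 and 28.9 CPM, with too few UMIs to pass the filter. The median depth of the gate was 6291 and 5738 UMIs per cell in the corn oil mice and 11274 and 10812 in the CCl4 mice.
Kdr fell from 39.7 and 51.0 CPM to 6.71 and 7.18 CPM (log2 -2.76 ± 0.37, edgeR adjusted p 0.000517) and Flt1 from 17.9 and 17.0 CPM to 4.03 and 6.46 CPM (log2 -1.78 ± 0.47, adjusted p 0.0241). The Flt1 call was lost without any 1 mouse (adjusted p 0.0864 to 0.225), with DESeq2 (0.347) and when cells were thinned before gating (0.0593). The summed endothelial markers of the gate were also lower (309 and 307 against 191 and 189 CPM), by a smaller factor than either receptor. As a percent of the Vwf<4 level, Kdr was at 0.938% and 0.974% against 0.270% and 0.281%. The marker median was at 1.19% and 1.53% against 0.835% and 0.607%. The part of endothelial RNA in the Kdr and Flt1 values was not tested. Vegfa was at 5.12 and 5.67 CPM against 20.8 and 11.5 CPM (adjusted p 0.0779), and was called with doubled gate minimums (log2 2.59, 0.0200).
The CCl4 effect in Kupffer cells differed from that in Vwf<4 cells for Nrp2 (log2 difference 3.002 ± 0.31, edgeR adjusted p 1.18e-05), Nrp1 (1.51, 0.000381) and Kdr (-1.77, 0.00143), where 5.32% of 13006 genes were called. The Nrp1 and Kdr calls were lost when cells were thinned after gating (0.0650 and 0.247). Within Kupffer cells Nrp1 was not called, at 76.9 and 65.7 CPM against 98.0 and 89.7 CPM (log2 0.34, edgeR adjusted p 0.308). In Vwf<4 cells it fell (log2 -1.14).

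Stellate cells, which sit on the outer face of the sinusoid, had 2 of 8 genes called, both lower, where 10.8% of 8923 genes were called (5.63% higher, 5.2% lower). Kdr was at 28.8 and 48.8 CPM in the corn oil mice and 12.1 and 7.37 CPM in the CCl4 mice (log2 -1.92 ± 0.41, edgeR adjusted p 0.0173), and Flt4 at 17.3 and 27.4 CPM against 4.89 and 4.91 CPM (log2 -2.20 ± 0.48, adjusted p 0.0187). Without corn oil replicate 2 both calls were lost (0.0812 and 0.181). Flt4 was also lost without CCl4 replicate 1 (0.0824), with DESeq2 (0.0621), without cells holding other gates' markers (0.0791) and when cells were thinned before gating (0.0591). Kdr was lost when they were thinned after gating (0.0522), and with doubled gate minimums Kdr was at log2 -2.82 and Flt4 at -2.81. Summed endothelial markers of the gate fell alongside, at 139 and 160 CPM against 74.4 and 52.4 CPM, and their part was not tested.
Vegfc was at 105 and 51.8 CPM against 86.2 and 114 CPM, with overlap (adjusted p 0.612). Nrp2 was at 8.07 and 12.2 CPM against 14.9 and 43.4 CPM, and of the 4 fits with 1 mouse left out only that without CCl4 replicate 1 called it (adjusted p 0.0105). Flt1 was at 32.3 and 47.2 CPM against 41.4 and 84.3 CPM, and was called higher without CCl4 replicate 1 (log2 1.05, adjusted p 0.0462) and lower when cells were thinned before gating (log2 -1.57, 0.0263). The CCl4 effect on Flt4 differed from that in Vwf<4 cells (log2 difference -2.03, edgeR adjusted p 0.0208, with 2.24% of 13398 genes called), a call lost without CCl4 replicate 1 (0.0573).

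Monocytes, which were few in the corn oil mice, had 0 of 7 genes called, with 0 at an unadjusted p under 0.05 in edgeR and 0 called by DESeq2, where 5.67% of 10204 genes were called (2.49% higher, 3.19% lower). Without corn oil replicate 2 the number was 2, among them Flt1 (log2 -1.19, adjusted p 0.0156). Vegfa CPM overlapped between groups (adjusted p 0.598), while the gate's share of all Vegfa UMIs in the kept cells was 11.2% and 2.13% in the corn oil mice and 36.4% and 55.4% in the CCl4 mice. The gate's share of all UMIs moved with it, from 1.31% and 0.559% to 10.2% and 18.8%. Summed Kupffer markers of the gate, mainly Cd5l, Marco and C1qa, were far higher in the corn oil mice (2377 and 3203 CPM against 232 and 209 CPM). Their part in the monocyte comparisons was not tested. Vwf<4 cells held 55.7% and 52.5% of Vegfa UMIs in the corn oil mice and 20.1% and 13.7% in the CCl4 mice. Of the UMIs of all genes they held 61.7% and 54.5% against 43.2% and 43.7%. Of all Vegfc UMIs they held 40.6% and 54.2% in the corn oil mice, below the shares of all genes. In the CCl4 mice they held 47.9% and 56.7%, above those shares. Of all Esm1 UMIs these cells held 76.4% to 92.2%. These totals include cells dropped for passing more than 1 gate.
Vegfc in monocytes was at 42.0 and 0 CPM against 3.11 and 2.93 CPM, and with a gate on Chil3 and F13a1 alone at 0 and 0 against 1.18 and 1.46 CPM, with fibroblast markers at 4.69 CPM in corn oil 1. Nrp1 in monocytes was at 82.3 and 113 CPM against 102 and 124 CPM, with overlap (log2 0.19, edgeR adjusted p 0.659). The CCl4 effect in monocytes differed from that in Vwf<4 cells for Nrp1 (log2 difference 1.42, edgeR adjusted p 0.0415) and Vegfc (-4.90, 0.0426), with 3.85% of 13245 genes called. The Nrp1 call was lost without corn oil replicate 1 (0.0624), CCl4 replicate 1 (0.0747) or CCl4 replicate 2 (0.102). The Vegfc difference rested on corn oil 1 and was 6.90 without it (0.751).

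Other genes of the pathway were counted over lists chosen with earlier results of these data known. Of 37 tested genes of VEGF receptor signalling in Vwf<4 cells, 2 were called, both lower (5.41%, beside 5.18% of all genes). Ptprb, a phosphatase that restrains endothelial receptors, was at 6853 and 7741 against 4462 and 4847 CPM (log2 -0.71). Sh2d2a, an adaptor that binds Kdr, was at 2.06 and 3.21 CPM against 0.689 and 0.329 CPM (log2 -2.38). The 4 T and NK cell markers in this gate summed to 28.4 and 36.0 CPM against 4.48 and 5.65 CPM, with 4 called lower. Their part in the Sh2d2a values was not tested. Ptprb and Cdh5 of this list are also genes of the endothelial gate, so cells were chosen on them and their values are a description. Without them 1 of 35 was called (2.86%). The median log2 change of the list was 0.06. Of 29 genes induced by VEGF or marking tip cells, 5 were called higher and 1 lower (20.7%, beside 5.18% of all genes), with a median of 0.30. Cd34, a sialomucin of endothelial cells and fibroblasts, was at 41.8 and 35.5 CPM against 98.3 and 126 CPM (log2 1.47), Ptgs2, a prostaglandin synthase, at log2 2.98, Sele, an adhesion receptor for leukocytes, at 2.68 and Plaur, the urokinase receptor, at 1.84.
In Vwf≥4 cells edgeR called 0 of 34 signalling, 0 of 19 induced, 0 of 7 neuropilin-ligand and plexin and 0 of 21 hypoxia genes (5, 7, 3 and 6 at an unadjusted p under 0.05), and DESeq2 called 0 of each. Of all 8559 genes tested there, edgeR called only 1.39%, and 988 had an unadjusted p under 0.05. Lists of this size could thus hold 0 called genes at the share of all genes. Of the signalling list without the gate genes, 2 were higher and 2 lower of 32 in stellate cells (12.5%, beside 10.8% of all genes), 2 higher and 2 lower of 31 in Kupffer cells (12.9%, beside 15.7%) and 2 lower of 32 in monocytes (6.25%, beside 5.67%), shares near those of all genes. Of the induced list, 8 of 22 were higher in stellate cells (36.4%), 2 higher and 6 lower of 15 in Kupffer cells (53.3%), and 2 of 19 higher in monocytes (10.5%). Among 9 tested semaphorins and plexins, Sema3a, a repulsive neuropilin ligand, rose in Vwf<4 cells from 0.894 and 0.464 CPM to 11.3 and 7.95 CPM (log2 3.75) and Plxna4 fell (log2 -0.74), the 2 called (22.2%). Among 23 genes of the hypoxia response there, 4 were called higher and 1 lower (21.7%, beside 5.18% of all genes). Epas1, an oxygen-regulated transcription factor, was at 759 and 758 CPM against 378 and 373 CPM (log2 -1.07), and the glycolysis genes Pgk1 (log2 1.12), Ldha (0.95) and Aldoa (0.68) rose. The same list had 3 higher and 4 lower of 20 in Kupffer cells (35.0%, beside 15.7%), where Pgk1 was at log2 1.84 and Ddit4, a stress-induced inhibitor of growth signalling, at -2.08.
Ccbe1, whose product promotes the processing of VEGF-C, fell in stellate cells from 353 and 361 CPM to 163 and 186 CPM (log2 -1.09 ± 0.18, edgeR adjusted p 0.00537). In Vwf<4 cells it was at 2.41 and 5.33 CPM against 0.560 and 0.494 CPM (log2 -2.91). Plaur was called higher in stellate cells (log2 3.31) and Kupffer cells (2.37), and Plau, the gene of its ligand urokinase, in the same gates (6.04 and 2.34, the first with 0 UMIs in corn oil 2, so that its size depends on the prior count).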

How the data were processed

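Single liver cells of 4 mice, 1 library each, were analysed. Per the file headers, the authors counted reads with the BD WTA Rhapsody Analysis Pipeline 1.9.1 against GRCm38 with GENCODE M19, and the deposited values are UMI counts per cell and gene. No aligner is named in these sources.

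Kept cells had 200 or more genes and no more than 25% mitochondrial UMIs (5621 to 7247 per mouse). Gates required at least 4 UMIs of Ptprb, Egfl7 and Cdh5 (endothelial), 5 of Reln, Colec11 and Lrat (stellate), 5 of Clec4f (Kupffer) or 3 of Chil3, F13a1 and Vcan with at most 2 of Clec4f (monocyte). Cells in more than 1 gate were dropped, and no doublet caller was run. UMIs were summed per mouse and gate and tested with edgeR 4.0.16 in R 4.3.3 (quasi-likelihood, TMM, filterByExpr, Benjamini-Hochberg over all genes of a comparison). SEs are those implied by the test statistic. CPM are plain, without TMM factors. Comparisons between gates used mouse as a block. Those of the other gates with Vwf<4 cells, the monocyte gate without Vcan, the thinning after gating and the GC box were added after seeing the data. Alternatives were DESeq2 1.42.0, no filter, each mouse left out, a replicate block, doubled gate minimums, at most 1 UMI of other gates' markers, and thinning to 2000 UMIs. The fits were tested on simulated data. Figures used Python 3.11.15 and matplotlib 3.10.9.

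All 10 genes are reported in every gate, and of each pathway list at most 4 called genes with the smallest p. The members and lists were chosen with earlier results of these data known. Each group has 2 mice, so the spread within a group rests on 1 difference. With 43 and 24 monocytes in the corn oil mice, that gate is the least precise. Promoter windows are from RefSeq, and 10 of 10 genes matched by symbol.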

Additional observations from a re-analysis of the deposited data

Results flagged for a closer look

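Each result below is a CCl4 effect that differed between 2 gates by an interaction test in edgeR with mouse as a block, adjusted over all genes. Between endothelial Vwf≥4 and Vwf<4 cells this was Vegfa, at a log2 difference of 1.75. Against Vwf<4 cells, Kupffer cells differed for Nrp2 (3), Nrp1 (1.51) and Kdr (-1.77), stellate cells for Flt4 (-2.03), and monocytes for Vegfc (-4.90) and Nrp1 (1.42). The comparisons with Kupffer, stellate and monocyte cells were chosen after seeing the data. Nrp1 itself was not called within Kupffer cells (log2 0.34) or monocytes (0.19), and it fell in Vwf<4 cells (-1.14). Kdr in Kupffer cells and Flt4 in stellate cells fell, and the summed endothelial markers of those gates fell by a smaller factor. The monocyte Vegfc value rested on corn oil 1, whose gate held fibroblast RNA. The part of these in the differences was not tested.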

How the results depend on the processing

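Over all 639 single-gene values recomputed, 545 kept their direction and their side of the threshold, 33 lost a call, 33 gained one and 28 changed sign. The cause was not tested where none is named. The labels do not pair the mice by replicate number. The correlation of same-numbered deviations was 0.122, 0.107, -0.0155, 0.0835 and 0.17 in Vwf<4, Vwf≥4, stellate, Kupffer and monocyte cells. With only 2 possible pairs, these values cannot show whether mice were paired. With a replicate block, 1936 genes were called in Vwf<4 cells (687 without it), 435 in Vwf≥4 cells (119), with 4 of the 10 genes described here (1), and 317 in monocytes (579).

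DESeq2 called 1382 genes in Vwf<4, 598 in stellate (966 in edgeR) and 529 in Kupffer cells (1313). It called 2 of the set in Vwf≥4 cells, 1 in stellate cells (2 in edgeR) and 0 for the difference between the endothelial gates (1 in edgeR; 5 in DESeq2 at an unadjusted p under 0.05). With no filter on low counts, 2270, 422, 1534 and 2099 genes were called in Vwf<4, Vwf≥4, stellate and monocyte cells, and of the set 5 in Vwf≥4 cells, 1 in monocytes and 3 for the difference. With 1 mouse left out, 157 to 427 genes were called in Vwf<4 cells, 210 to 374 in Vwf≥4 cells, 841 to 1580 in Kupffer cells and 0 to 1883 in monocytes. The 0 was without CCl4 replicate 2, where edgeR had 645 at an unadjusted p under 0.05, and the 1883 without corn oil replicate 2. Of the set, 2 to 4 were called in Vwf<4 and in Vwf≥4 cells, 0 to 3 in stellate cells, 0 to 2 in monocytes and 1 to 4 for the difference.

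Doubled gate minimums gave 5 of the set in Kupffer cells (3 as reported). Leaving out cells with markers of other gates gave 1 in stellate cells and 479 genes in Kupffer cells. Thinning before gating gave 519 genes in stellate and 432 in Kupffer cells, and of the set 2 in Vwf≥4 cells, 1 in Kupffer cells and 0 for the difference (1 at an unadjusted p under 0.05 in edgeR). Thinning after gating gave 544 genes in stellate, 533 in Kupffer and 274 in monocyte cells, and of the set 2 in Vwf≥4 cells, 0 in stellate cells (2 unadjusted), 0 in Kupffer cells (0 unadjusted; Kdr and Nrp2 did not pass the filter) and 0 for the difference (4 unadjusted). The monocyte gate without Vcan gave 1055 genes. In monocytes, the doubled minimums and the thinning before gating were not run, because fewer than 20 cells were left in a corn oil mouse.

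Sign changes were as follows, as log2 values. In Vwf<4 cells Vegfa was at 0.22 without corn oil replicate 2 and 0.14 without CCl4 replicate 2. In Vwf≥4 cells Flt4 was at -0.012 thinned before gating. In stellate cells with 1 mouse left out, Vegfc ran from -0.073 (without corn oil replicate 2) to 0.82 and Vegfa from -0.28 (without CCl4 replicate 1) to 0.39. Vegfa was also at -0.48 with doubled minimums and -0.64 thinned before gating. Stellate Flt1 was at -0.25 with doubled minimums, -1.57 thinned before and -0.36 thinned after gating. In Kupffer cells Vegfb was at 0.19 with doubled minimums and 0.25 without cells holding other markers, Nrp1 at -0.66 thinned before and -0.13 after gating, and Nrp2 at -0.62 thinned before gating. In monocytes with 1 mouse left out, Vegfb ran from -1.27 to 8.80, Flt1 from -1.19 to 0.11 and Nrp1 from -0.075 to 0.44, each changing sign without corn oil replicate 1. Monocyte Vegfb was at 0.78 thinned after gating. Monocyte Flt1 was at 0.10 in the gate without Vcan. Pgf between the endothelial gates ran from -0.89 (without CCl4 replicate 2) to 3.51. For the difference of the CCl4 effect between these gates, thinning before gating gave Vegfb -0.071, Vegfc 0.015, Flt1 -0.23, Nrp1 -0.32 and Nrp2 -0.30, and thinning after gating gave Vegfb -0.24. Between monocytes and Vwf<4 cells Vegfc ran from -5.72 to 6.90, the latter without corn oil replicate 1.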
